A study of Mus musculus with 15 samples.

Results

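The amino acid stress response was followed in 10 genes, Atf4, Atf5, Ddit3, Chac1, Trib3, Asns, Psat1, Phgdh, Sesn2 and Slc7a11. They were chosen by name, as targets or partners of Atf4, and all 10 were among the 55228 genes listed. The cells were 81K1 mouse embryonic stem cells, 1 clone derived from the OG2 line, in which doxycycline switches on an shRNA that targets Smarcb1, a subunit of BAF, which remodels chromatin. RNA-seq was done on 15 libraries in 5 groups of 3. Cells without doxycycline made up the 48 h ctrl and 240 h ctrl groups, and cells given doxycycline daily made up the 48 h kd, 72 h kd and 240 h kd groups. Every group carried the inducible shRNA construct and grew on gelatine in medium with serum, LIF, beta-mercaptoethanol and added non-essential amino acids. Neither a 72 h control nor cells given doxycycline but lacking the shRNA were analysed here, so knockdown and doxycycline cannot be told apart in these libraries. The labels do not say whether the 3 libraries of a group came from separate cultures, and p-values measure only the spread between these libraries.

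Cells that run short of an amino acid activate the kinase Gcn2 (Eif2ak4), which phosphorylates the translation factor eIF2. General protein synthesis then slows while translation of Atf4 mRNA increases, and the transcription factor Atf4 activates genes for amino acid synthesis, uptake and tRNA charging. The same arm, known as the integrated stress response, also answers to misfolded protein, lack of heme and viral RNA through other kinases. Ddit3 and Trib3 are induced later in the response, and Chac1 is among its most sensitive reporters. Atf4 is controlled in large part at translation, which RNA levels do not show.

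Promoters of the response often hold a composite site for C/EBP and Atf4 dimers, with the core TGATGNAA. RefSeq promoters (build GRCm38.p6, 250 bases before to 50 after the start) matched all 10 genes by symbol, with 2 promoters each for Atf5 and Psat1. The core was searched on both strands and lay in a promoter of 4 of the 10 genes, Chac1, Trib3, Asns and Slc7a11, and in 3.97% of all 32851 promoters of this length (4.51% of genes). In Trib3 it lay after the start, at bases 15 to 22. The other 3 genes are shown because their matches lie before the start, as the 250 upstream bases on the strand of the gene, with the match in capitals. Chac1 lies at chr2:119350992-119351241 (plus strand), Asns at chr6:7693210-7693459 (minus strand) and Slc7a11 at chr3:50443614-50443863 (minus strand). Slc7a11 holds the letters at 2 places, once in each orientation.
Chac1: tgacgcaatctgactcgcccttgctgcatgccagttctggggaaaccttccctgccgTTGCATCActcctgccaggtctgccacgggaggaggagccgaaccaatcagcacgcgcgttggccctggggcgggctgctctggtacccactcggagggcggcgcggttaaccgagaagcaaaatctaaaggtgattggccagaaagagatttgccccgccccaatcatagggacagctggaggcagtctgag
Asns: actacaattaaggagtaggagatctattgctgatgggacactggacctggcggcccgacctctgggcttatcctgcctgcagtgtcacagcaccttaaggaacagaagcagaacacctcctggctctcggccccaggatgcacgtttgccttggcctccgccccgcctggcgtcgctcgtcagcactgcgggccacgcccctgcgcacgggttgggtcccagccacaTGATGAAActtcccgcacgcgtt
Slc7a11: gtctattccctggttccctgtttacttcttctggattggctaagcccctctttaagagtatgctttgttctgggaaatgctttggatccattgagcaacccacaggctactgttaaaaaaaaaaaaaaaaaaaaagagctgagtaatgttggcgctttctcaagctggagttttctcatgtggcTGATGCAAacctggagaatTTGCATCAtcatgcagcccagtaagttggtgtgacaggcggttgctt
The match in Chac1 begins 193 bases before the start, that in Asns 23 bases and those in Slc7a11 66 and 47 bases. In Asns it falls inside the gene span of the deposited table, which begins further upstream than the RefSeq start. These matches describe letters in a window and not binding.

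The library totals inferred from the FPKM values were 11074998 to 14515300 reads. Smarcb1 was examined first, as the target of the shRNA. Its mean was 18.0% of the control at 48 h, 15.7% at 72 h and 19.3% at 240 h, and every library lay on the side of its label. Library 2 of 48 h kd stood apart, with 2.53% mitochondrial reads where the other libraries had 0.507% to 1.95%, so results that rest on it are given with and without it. The 8 markers of embryonic stem cells summed to between 1408 and 2416 FPKM per library and none was at 0. Markers of primitive endoderm, mesoderm and fibroblasts summed to at most 0.804, 1.45 and 1.58 FPKM. Those of trophoblast and neural cells reached 17.3 and 16.2 FPKM, carried by 1 gene each, Tfap2c and Tubb3, and Neurog2 was at 0 in every library of 4 groups. In bulk RNA, fewer cells of a type and less RNA per cell cannot be told apart.

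Levels are given in FPKM, in which the fragments of a gene are divided by its kilobases and by the reads of the library. Here the kilobases are those of the whole gene span, introns included, so levels of different genes were compared only after division by exonic length. On that scale, FPKM by exonic length, the 48 h ctrl means were 178 for Psat1, 157 for Atf4, 144 for Asns and 73.4 for Phgdh. Sesn2 followed at 47.7, Trib3 at 30.5, Atf5 at 29.0, Chac1 at 21.7 and Ddit3 at 13.1. Whether reads in introns are included in these levels was not tested. The span was 10.8 times the exonic length for Phgdh, 10.0 times for Psat1 and 6.61 times for Asns, against 1.93 to 3.22 times for Chac1, Atf5, Trib3 and Ddit3. Exonic length merges the exons of all transcripts, which for Atf4 covered the whole span. The order of the genes is therefore uncertain. Slc7a11, the cystine and glutamate exchanger, stood at 0.237 from 33 to 45 reads.

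Differences between groups were tested with limma on log2(FPKM + 0.1), with p-values adjusted over all genes that averaged 0.5 FPKM or more. A gene passed the test at an adjusted p under 0.05, and was called if its log2 difference was also above 0.58 in size, the threshold of the study. Slc7a11 lay under the FPKM minimum, so 9 of the 10 genes were tested. The plot of levels by library shows all 10.

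**Figure D1:**
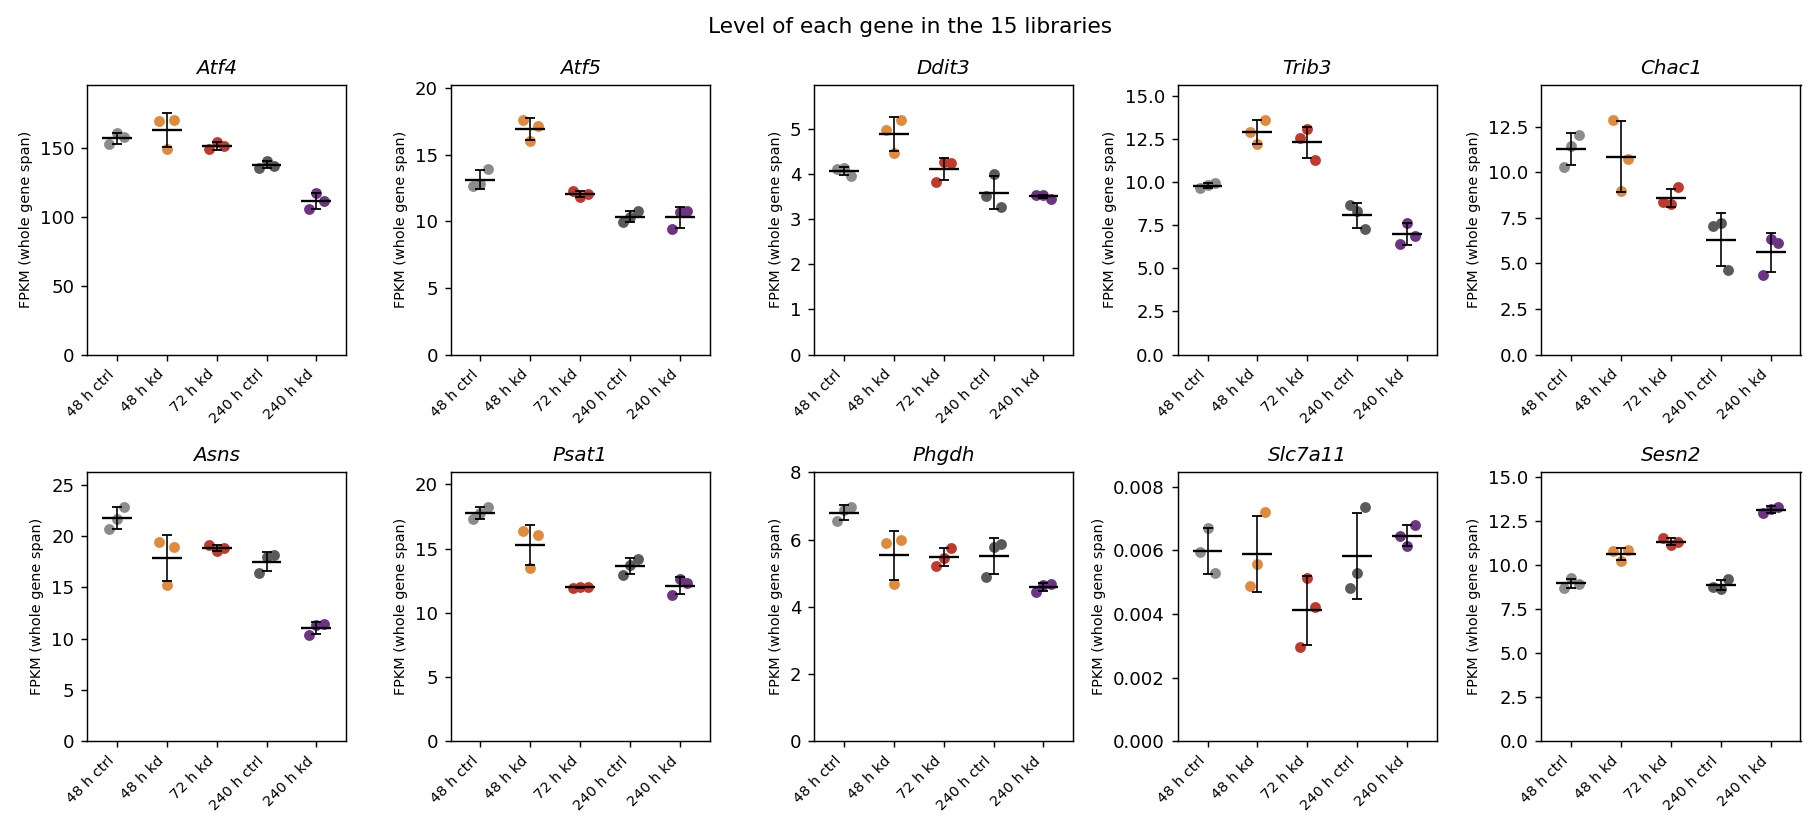
Level (FPKM over the whole gene span, y axis from 0) of each of the 10 genes in the 5 groups of 3 libraries (x axis). Points are libraries, horizontal lines the mean and bars the SD (n = 3). Sesn2 lies highest in 240 h kd, between 12.97 and 13.3 FPKM, whereas Asns lies lowest there, between 10.4 and 11.5 FPKM.

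The first question was whether the response genes had moved by 48 h of Smarcb1 kd. At 48 h, 4 of the 9 tested genes were upregulated (8.03% of all genes tested were) and none downregulated (8.12%). They were Trib3, Atf5, Ddit3 and Sesn2. None reached the fold threshold and so none was called, against 3.99% of all genes. By limma voom on reads recovered from the same values none was called either, against 9.22% of all genes. There 7 passed the adjusted p (25.7% of all genes). These were the same 4 genes higher, and Asns, Psat1 and Phgdh lower. The median log2 difference was 0.05 for the 9 genes and 0.01 for all genes. Atf4 itself did not pass. Of the 10 genes, 4 lay higher in every kd library than in any ctrl library (19.5% of all genes) and 3 lower (19.9%).

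Trib3 encodes a pseudokinase that binds Atf4 and Akt and dampens the response. Its level was 9.65, 9.82 and 9.97 FPKM in 48 h ctrl and 12.9, 12.2 and 13.6 FPKM in 48 h kd. All 3 kd libraries were above all ctrl libraries. The log2 difference was 0.39 (SE 0.05, 1.31-fold, limma adjusted p = 0.00715). Without any 1 library it was between 0.36 and 0.43, with an adjusted p of at most 0.0417.

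Atf5, a transcription factor related to Atf4 and likewise controlled at translation, measured 12.6, 12.8 and 13.9 FPKM in 48 h ctrl and 17.6, 16.0 and 17.1 FPKM in 48 h kd. The groups did not overlap and the log2 difference was 0.36 (SE 0.06, limma adjusted p = 0.0151). Its span shares 571 bases with Nup62 and 272 with Il4i1 on the opposite strand. Whether counting took account of strand was not tested, so part of its 544 to 892 reads per library may belong to these genes. Ddit3 (Chop), a transcription factor linked to cell death under lasting stress, measured 4.11, 4.14 and 3.97 FPKM in 48 h ctrl and 4.99, 4.48 and 5.21 FPKM in 48 h kd. All kd libraries were higher, with a log2 difference of 0.26 (SE 0.06, limma adjusted p = 0.0466). It shares 68 bases with Mars, the methionyl-tRNA synthetase gene on the other strand.

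Sesn2 encodes sestrin 2, a leucine sensor that restrains mTORC1 when leucine is scarce. It measured 8.72, 9.26 and 8.93 FPKM in 48 h ctrl and 10.8, 10.3 and 10.9 FPKM in 48 h kd. Every kd library was above every ctrl library, with a log2 difference of 0.25 (SE 0.04, limma adjusted p = 0.0193). Atf5 no longer passed without 48 h kd library 3 or 48 h ctrl library 1 or 2 (adjusted p up to 0.0701), and with 1 library left out Ddit3 and Sesn2 passed only where that was 48 h kd library 2 (adjusted p otherwise up to 0.144 and 0.076). After rescaling to TPM, where 19251 genes met the minimum and 9.11% passed, Trib3 was the 1 gene that did, with limma adjusted p-values of 0.0593 for Atf5, 0.19 for Ddit3 and 0.102 for Sesn2.

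Atf4 measured 153, 161 and 158 FPKM in 48 h ctrl and 170, 149 and 170 FPKM in 48 h kd. The ranges overlapped through library 2 of 48 h kd and the log2 difference was 0.05 (SE 0.07, limma adjusted p = 0.641). Without that library Atf4 was at 0.11 (SE 0.04, limma adjusted p = 0.0993), and Chac1 at 0.06. Chac1, which breaks down the antioxidant glutathione, measured 10.3, 11.4 and 12.04 FPKM in ctrl and 12.9, 8.98 and 10.7 FPKM in kd, with a log2 difference of -0.07 (SE 0.14). Its kd libraries ran from below to above the ctrl range.

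Whether the biosynthetic enzymes passed depended on the fit. Asns makes asparagine from aspartate and glutamine and measured 20.7, 21.7 and 22.9 FPKM in 48 h ctrl and 19.4, 15.2 and 19.0 FPKM in 48 h kd (log2 difference -0.29, SE 0.10, limma adjusted p = 0.12). For Phgdh, the first enzyme of serine synthesis, the levels were 6.56, 6.88 and 6.98 FPKM in ctrl and 5.91, 4.68 and 6.003 FPKM in kd (log2 difference -0.30, SE 0.10, limma adjusted p = 0.107). Psat1, the next enzyme of that pathway, measured 17.3, 17.8 and 18.2 FPKM in ctrl and 16.3, 13.5 and 16.0 FPKM in kd (log2 difference -0.22, SE 0.08, limma adjusted p = 0.132). No kd library of these 3 genes reached the ctrl range, and library 2, with the high mitochondrial share, was the lowest of each. Without it the log2 differences were -0.18 for Asns, -0.19 for Phgdh and -0.13 for Psat1, with limma adjusted p-values of 0.0865, 0.047 and 0.0822. By limma voom all 3 passed (adjusted p = 0.0174 for Asns, 0.0143 for Phgdh and 0.0272 for Psat1), as they did in 1 fit of all 15 libraries (limma adjusted p = 0.0187, 0.0256 and 0.0261). Library 2 of 48 h kd was the lowest of its group for all 9 tested genes. Without it 5 of the 9 genes passed (14.9% of all genes), Phgdh being the fifth, and the part of the mitochondrial share in these values was not tested.

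**Figure D2:**
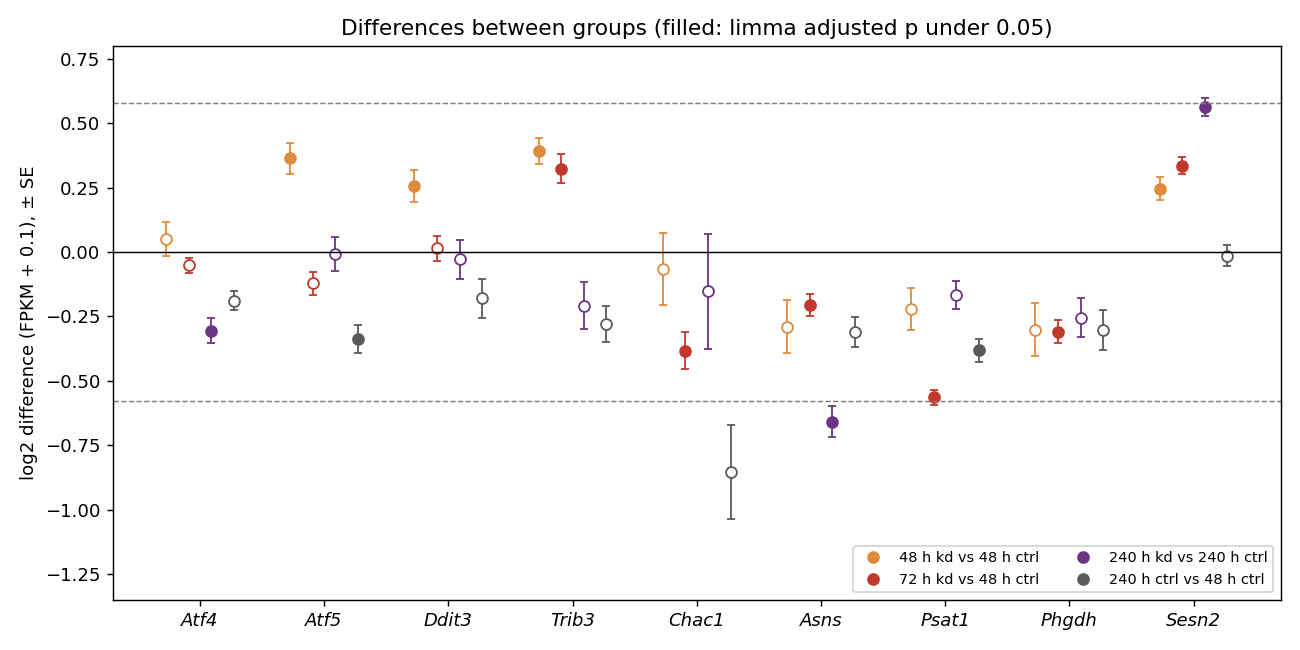
Log2 differences (y axis, of FPKM + 0.1) with SE for the 9 tested genes (x axis) in 4 comparisons of 3 against 3 libraries. Filled points have a limma adjusted p under 0.05 and dashed lines mark 0.58 in either direction. Sesn2 is above 0 in all 3 knockdown comparisons (0.25, 0.33 and 0.56), and only Asns at 240 h is both filled and past a dashed line.

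The 72 h kd libraries were compared with 48 h ctrl. Of the 9 genes, 2 were upregulated (28.9% of all genes) and 4 downregulated (26.0%). Trib3 and Sesn2 were again the higher ones, and Psat1, Chac1, Phgdh and Asns the lower ones. No gene was called, against 13.5% of all genes, and none by limma voom, against 22.6% of all genes. By limma voom 7 passed the adjusted p, with Slc7a11 among them (61.8% of all genes). The median log2 difference was -0.12 for the 9 genes and 0.01 for all genes. Of the 10 genes, 2 lay above all ctrl libraries (33.6% of all genes) and 6 below them (31.1%). The 6 include Slc7a11, which was near the floor and not among the tested genes behind these shares. Since this comparison shares its control libraries with the 48 h comparison, the values of both are set side by side without a test between them.

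Psat1 was the gene furthest from control. It measured 11.96, 12.03 and 11.97 FPKM in 72 h kd, all below the 17.3 FPKM of the lowest 48 h ctrl library. The log2 difference was -0.56 (SE 0.03, limma adjusted p = 8.34e-05), just inside the threshold of 0.58, and was -0.584 without 48 h ctrl library 1, where it was called. Phgdh measured 5.22, 5.46 and 5.75 FPKM at 72 h, also below the ctrl range, with a log2 difference of -0.31 (SE 0.05, limma adjusted p = 0.00271). Asns measured 19.1, 18.5 and 18.9 FPKM (log2 difference -0.21, SE 0.04, limma adjusted p = 0.0087). Chac1 measured 8.35, 8.27 and 9.17 FPKM (log2 difference -0.38, SE 0.07, limma adjusted p = 0.00624) and did not pass in 1 fit of all 15 libraries (limma adjusted p = 0.0982).

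Sesn2 measured 11.5, 11.2 and 11.3 FPKM at 72 h, with a log2 difference of 0.33 (SE 0.03, limma adjusted p = 0.000593). Trib3 measured 12.6, 13.1 and 11.3 FPKM (log2 difference 0.32, SE 0.06, limma adjusted p = 0.00537). Both lay above the ctrl range in every library. Atf4, at 149, 154 and 151 FPKM, and Ddit3, at 3.84, 4.27 and 4.25 FPKM, overlapped with ctrl, and their log2 differences were -0.05 and 0.01. Atf5, at 12.3, 11.8 and 12.1 FPKM, lay just below the ctrl range (log2 difference -0.12, limma adjusted p = 0.0665).

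The choice of control mattered at this time point. Set against 240 h ctrl instead, the log2 differences changed sign for Atf4 (0.14), Atf5 (0.22), Chac1 (0.47) and Asns (0.11), and Phgdh came to -0.01. Trib3 at 0.60 was then called (16.6% of all genes were), and Sesn2 at 0.35 and Psat1 at -0.18 kept their directions. In all 5 of 9 genes passed the adjusted p, near the 57.3% of all genes.

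At 240 h, Asns was downregulated past both thresholds, Atf4 was downregulated and Sesn2 upregulated. The 1 gene called of 9 compares with 8.91% of all genes. Past the adjusted p alone, 1 gene was higher (17.3% of all genes) and 2 lower (16.4%). The median log2 difference was -0.17 for the 9 genes and 0.00 for all genes, and 8 of the 9 differences were negative. Of the 10 genes, 1 lay above all ctrl libraries (25.3% of all genes) and 4 below them (24.9%).

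Asns measured 16.4, 18.0 and 18.1 FPKM in 240 h ctrl and 10.4, 11.3 and 11.5 FPKM in 240 h kd. The ranges were far apart, and the log2 difference was -0.66 (SE 0.06, 0.634-fold, limma adjusted p = 0.000851). Leaving out any 1 library kept it between -0.704 and -0.615. Atf4 measured 136, 141 and 137 FPKM in 240 h ctrl and 106, 117 and 112 FPKM in 240 h kd. Every kd library was lower, and the log2 difference was -0.31 (SE 0.05, 0.809-fold, limma adjusted p = 0.00618).

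Sesn2 measured 8.76, 8.67 and 9.20 FPKM in 240 h ctrl and 12.97, 13.2 and 13.3 FPKM in 240 h kd, from 1972 to 3538 reads. The log2 difference was 0.56 (SE 0.04, 1.48-fold, limma adjusted p = 0.000271), which became 0.59, a call, without 240 h ctrl library 3. Another listed gene on the same strand, Gm12981, overlaps 6089 bases of its span but had at most 47 reads.

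The serine enzymes did not pass at 240 h in the main test. Phgdh measured 4.89, 5.78 and 5.88 FPKM in ctrl and 4.45, 4.65 and 4.68 FPKM in kd (log2 difference -0.25, SE 0.08, limma adjusted p = 0.0505). Psat1 measured 12.9, 13.7 and 14.2 FPKM in ctrl and 11.4, 12.6 and 12.3 FPKM in kd (log2 difference -0.17, SE 0.06, limma adjusted p = 0.0674). All kd libraries of both genes were below ctrl. Phgdh passed with a minimum of 2 FPKM (limma adjusted p = 0.0428), in 1 fit of all 15 libraries (0.0421), without 240 h ctrl library 1 (0.00543) and by limma voom (0.00178), and Psat1 by limma voom (0.00512). With the replicate number as a block both passed (limma adjusted p = 0.0457 for Phgdh and 0.046 for Psat1). Trib3 measured 8.68, 8.33 and 7.28 FPKM in ctrl and 6.41, 7.66 and 6.91 FPKM in kd, with overlap (log2 difference -0.21, SE 0.09, limma adjusted p = 0.139), and passed by limma voom (adjusted p = 0.0325). Atf5 (log2 difference -0.01), Ddit3 (-0.03) and Chac1 (-0.15) overlapped between the groups as well. For Chac1 the spread was wide, with 7.04, 7.21 and 4.61 FPKM in ctrl and 4.38, 6.34 and 6.10 FPKM in kd.

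Markers of cell types were read in the same comparisons. Of 8 stem cell markers, 1 was higher and 3 lower at 48 h (8.03% and 8.12% of all genes), 3 higher and 3 lower at 72 h (28.9% and 26.0%), and 1 higher and 5 lower at 240 h (17.3% and 16.4%). Klf4 was lower each time, with log2 differences of -0.87, -0.76 and -1.20, and Esrrb was lower at 240 h (-0.78). Dppa5a was higher at 72 h (1.04). The sum of these markers was 1536 to 1648 FPKM in 48 h ctrl. It was 1592 to 1847 FPKM after 48 h of knockdown and 2322 to 2416 FPKM after 72 h. At 240 h it was 1408 to 1542 FPKM in ctrl and 1428 to 1480 in kd. Dppa5a carried the higher sums. The summed level of the other 7 was 804 to 848 FPKM for the 48 h ctrl libraries, against 692 to 770 FPKM at 48 h of kd and 786 to 823 FPKM at 72 h. By 240 h these 7 gave 767 to 803 FPKM for ctrl, with kd at 631 to 640.1 FPKM. Among the other cell types, the trophoblast marker Tfap2c differed by -0.61, 0.92 and 0.64 on the log2 scale at the 3 times, and the neural marker Tubb3 was lower at 72 h (-0.87). At 240 h the fibroblast marker Col1a1 was higher, at 0.923 ± 0.113 against 0.261 ± 0.0165 FPKM, and Thy1, the other tested marker on that list, was lower, at 0.452 ± 0.0146 against 0.646 ± 0.0521 FPKM (SD, n = 3). Their part in the differences of the response genes was not tested.

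An interaction term over 12 libraries compared the effect of knockdown at 240 h with that at 48 h, 2 effects that share no library. It passed for 4 of 9 genes (15.6% of all genes) and was called for 1, Trib3 (5.82%). For Trib3 the effect at 240 h minus that at 48 h was a log2 value of -0.60 (SE 0.11, limma adjusted p = 0.00514). That call ended after rescaling to TPM (-0.572) and with a pseudocount of 1 (-0.551). It also ended without 48 h kd library 3 (-0.56), 240 h ctrl library 1 (-0.55) or 2 (-0.579), or 240 h kd library 1 (-0.54), since each fell short of 0.58, but the adjusted p stayed at or below 0.0163 without any 1 library. For Atf4 the interaction was -0.36 (SE 0.08, limma adjusted p = 0.0156) and for Atf5 -0.37 (SE 0.09, limma adjusted p = 0.0212). After rescaling to TPM the limma adjusted p was 0.0942 for Atf4 and 0.0938 for Atf5. Sesn2 went the other way, with an effect larger at 240 h by 0.32 (SE 0.05, limma adjusted p = 0.00317). The interaction of Asns was -0.37 (SE 0.13, limma adjusted p = 0.0781), and did not pass, nor did those of Ddit3 (-0.29), Chac1 (-0.09), Psat1 (0.05) and Phgdh (0.05). Without library 2 of 48 h kd 6 of the 9 genes passed (14.7% of all genes), Asns at -0.48 (limma adjusted p = 0.00572) and Ddit3 at -0.35 (limma adjusted p = 0.0408) being added. Asns also passed by limma voom (adjusted p = 0.0156) and in 1 fit of all 15 libraries (limma adjusted p = 0.0433), and Ddit3 without 240 h ctrl library 3 (limma adjusted p = 0.0367).

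The untreated cells themselves were not at the same level at both times. Between 48 h ctrl and 240 h ctrl all 9 differences were negative (8 after rescaling to TPM, where Sesn2 came to 0.10 and the median of all genes moved by 0.11), with a median log2 difference of -0.30 against -0.02 for all genes. In 7 of the 10 genes every 240 h ctrl library lay below every 48 h ctrl library, against 18.3% of all genes in this direction. Only Atf5 and Psat1 passed (1.33% of all genes passed lower, 3.44% in either direction), and none was called (0.475%). On the log2 scale, Psat1 fell by 0.38 (SE 0.05, limma adjusted p = 0.0357) and Atf5 fell by 0.34 (SE 0.05, limma adjusted p = 0.0441). The largest difference was that of Chac1, from 11.3 ± 0.877 to 6.29 ± 1.45 FPKM (SD, n = 3), a log2 difference of -0.86 (SE 0.18) that did not pass (limma adjusted p = 0.0645). No gene passed once any 1 of the 6 libraries was left out, where at most 10 genes in all passed. By limma voom 7 of the 9 passed (12.1% of all genes), and Chac1 was called (1.36% of all genes were). The labels give no culture or sequencing batch for the 2 times, so time in culture and batch cannot be told apart.

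The knockdown groups were also compared with each other. From 48 h kd to 72 h kd, 3 of 9 genes fell (15.5% of all genes) and none rose (20.0%). Atf5 fell by 0.49 (SE 0.05, limma adjusted p = 0.00212), Psat1 by 0.34 (SE 0.08, limma adjusted p = 0.0228) and Ddit3 by 0.24 (SE 0.07, limma adjusted p = 0.0489) on the log2 scale. None was called, against 7.45% of all genes. By limma voom 4 passed (43.0%) and none was called, where 2101 of all 16104 genes tested were. Atf5 alone passed in every fit without 1 library and after rescaling to TPM. Without library 2 of 48 h kd 5 genes passed (40.0% of all genes), Atf4 (-0.17) and Chac1 (-0.45) being added.

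From 72 h kd to 240 h kd, 7 of 9 genes fell (31.8% of all genes) and Sesn2 rose (27.7% of all genes rose). The 3 called were Trib3 at -0.81 (SE 0.08, limma adjusted p = 0.0006), Asns at -0.76 (SE 0.04, limma adjusted p = 9.45e-05) and Chac1 at -0.62 (SE 0.15, limma adjusted p = 0.0136), against 15.7% of all genes. Chac1 fell short of the fold threshold with a pseudocount of 1 (-0.551), after rescaling to TPM (-0.551), without 240 h kd library 1 (-0.459), and by a small margin without 72 h kd library 3. Atf4 fell by 0.44, Phgdh by 0.25, Atf5 by 0.23 and Ddit3 by 0.22, and Sesn2 rose by 0.21 on the log2 scale. After rescaling to TPM Atf5 and Ddit3 did not pass (limma adjusted p = 0.149 and 0.0657), and Atf5 also not without 72 h kd library 1 (0.0626) or 3 (0.0575). The log2 difference of Psat1 was 0.01 (SE 0.04). Duration of knockdown and time in culture cannot be told apart in these comparisons.

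Slc7a11 remained near the floor of detection throughout. The 48 h ctrl libraries had 45, 41 and 33 reads and the 48 h kd libraries 31, 36 and 44. The 72 h kd libraries had 21, 35 and 31 reads. At 240 h the ctrl libraries had 33, 36 and 52 reads and the kd libraries 47, 49 and 51. The span of 551089 bases is 39.6 times its exonic length, and reads in introns may count toward these numbers. Being under the FPKM minimum it had no main test. In limma voom on recovered reads, its log2 difference was -0.04 at 48 h of knockdown (SE 0.20, adjusted p = 0.917). For 72 h it came to -0.56 (SE 0.22, adjusted p = 0.0301), from 21 to 35 reads against 33 to 45. The 240 h value was 0.16 (SE 0.19, adjusted p = 0.519). Between 72 h kd and 240 h kd voom called a rise of 0.67 (SE 0.21, adjusted p = 0.0064). On log2(FPKM + 0.1) with no minimum, the 72 h value and this one were -0.03 and 0.03, with limma adjusted p-values of 0.423 and 0.266.

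Ordered by level, Sesn2 ran from 240 h kd over 72 h kd and 48 h kd to 48 h ctrl, each step without overlap between libraries, and the 2 ctrl groups overlapped. Trib3 was highest in 48 h kd and 72 h kd, which overlapped, followed by 48 h ctrl and then by 240 h ctrl and 240 h kd, which overlapped. Psat1 and Phgdh were highest in 48 h ctrl, apart from every other group. Asns was highest in 48 h ctrl and lowest in 240 h kd, with 72 h kd, 48 h kd and 240 h ctrl between them and neighbours overlapping. Atf4 overlapped among 48 h kd, 48 h ctrl and 72 h kd, and was then lower in 240 h ctrl and lowest in 240 h kd.

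To compare shapes, each gene was standardised over the 15 libraries and set against the mean of the 10 profiles. That mean was itself standardised again over the 15 libraries, which widens its range. Atf4 was nearest to the mean, with a root mean square difference of 0.401 SD units, followed by Chac1 (0.439) and Atf5 (0.475). Sesn2 (1.65) and Slc7a11 (1.43) were furthest from it, beyond the median of 1.37 for the 7072 genes compared. The 8 other genes with profiles most like the mean were Adh5 (0.242), Frg1 (0.310), Rpgrip1 (0.311), Psph (0.315), Psma3 (0.324), Sap30 (0.364), Mtch2 (0.384) and Tomm7 (0.397). Psph catalyses the last step of serine synthesis, after Phgdh and Psat1. Its mean level was 3.65 FPKM in 48 h kd and 3.39 in the 48 h ctrl group. It was 3.11 FPKM at 72 h of knockdown, and 2.71 in 240 h ctrl against 2.41 in 240 h kd. These rankings are descriptions over 15 libraries that share their groups.

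**Figure D3:**
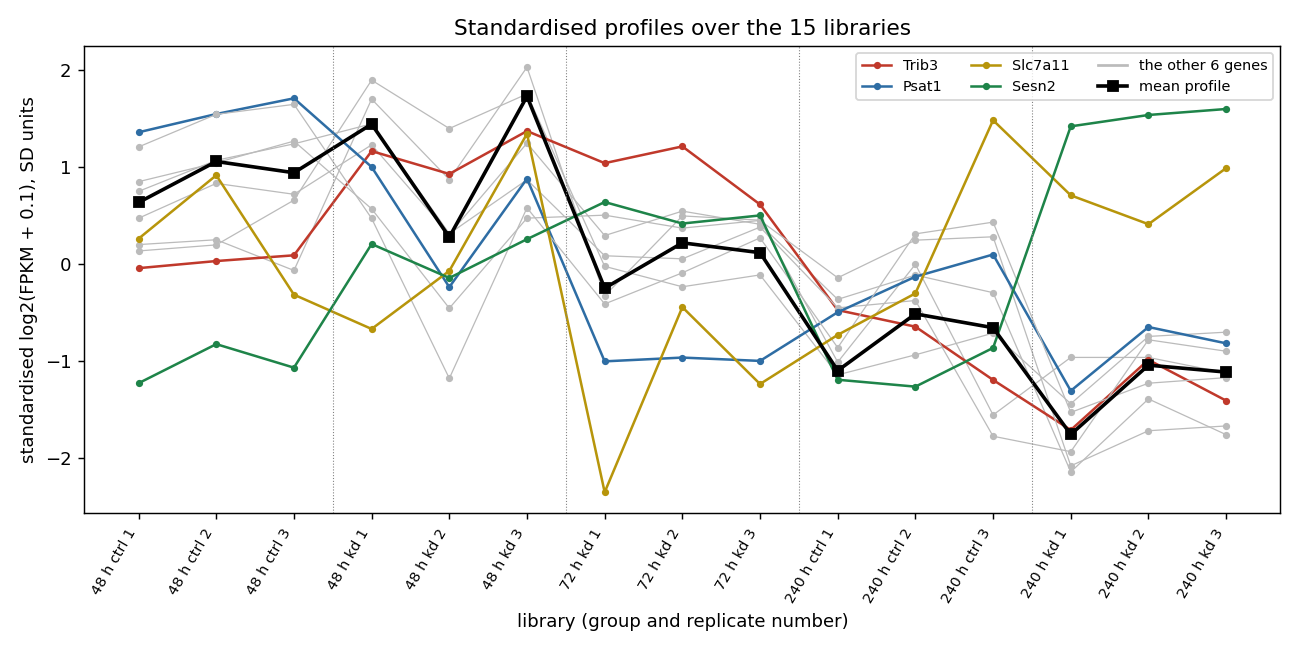
Standardised log2(FPKM + 0.1) of the 10 genes and their mean (y axis, SD units) in the 15 libraries (x axis, group and replicate number). The mean profile was standardised again over the 15 libraries, so it is not the plain average of the plotted values. The mean profile lies between 0.278 and 1.73 in 48 h kd and between -1.76 and -1.04 in 240 h kd, while Sesn2 lies between 1.42 and 1.60 in 240 h kd, and below 0 in both ctrl groups.

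The rest of the pathway was read from 11 lists that held none of the 10 genes. Their counts stand against all genes tested, of which 8.03% passed higher and 8.12% lower at 48 h, 28.9% and 26.0% at 72 h, and 17.3% and 16.4% at 240 h. The kinases of the response, eIF2 and eIF2B passed in few members at 48 h (0 higher and 1 lower of 15). At 72 h 5 were higher and 7 lower of 16, with a median log2 difference of -0.05. None of these 16 was called there, against 13.5% of all genes. The 240 h counts were 3 higher and 2 lower. The partners of Atf4 and stress-induced transcription regulators gave 3 higher and 1 lower of 8 at 48 h, 3 and 2 at 72 h, and 2 and 3 at 240 h. Ddit4 (Redd1), an mTORC1 inhibitor, was at 63.2 ± 3.06 FPKM in 72 h kd against 35.0 ± 0.726 in 48 h ctrl (SD, n = 3) and at 49.2 ± 5.11 in 240 h kd against 28.0 ± 3.69 in 240 h ctrl. Its paralogue Ddit4l was upregulated at 48 h (log2 difference 0.61) and 72 h (1.13). Nupr1, a stress-induced chromatin protein, was downregulated at 72 h (-0.64) and 240 h (-0.58).

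Amino acid and one-carbon synthesis genes went both ways. At 48 h 2 were higher and 3 lower of 15, at 72 h 6 and 5, and at 240 h 2 and 6, with medians of 0.03, 0.03 and -0.13. Gpt2, which makes alanine, rose from 3.44 ± 0.130 to 5.32 ± 0.237 FPKM at 48 h and stood at 6.53 ± 0.114 at 72 h (SD, n = 3). Pycr1, the last enzyme of proline synthesis, was higher at 72 h (log2 difference 0.77, SE 0.04). Cth, which makes cysteine from cystathionine, was lower at 72 h (-1.09, SE 0.03) and at 240 h, at 0.960 ± 0.0352 FPKM against 2.86 ± 0.0673. Bcat1, the cytosolic branched-chain aminotransferase, was lower at 72 h (-0.93) and 240 h (-0.64).

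Amino acid transporters passed in 1 of 12 at 48 h, higher. At 72 h 4 were higher and 3 lower, with Slc43a1 (0.67) and Slc1a4 (0.64) the largest rises. At 240 h 1 was higher and 3 lower of 11. The tRNA synthetases that Atf4 activates, with the tRNA exporter Xpot, were lower at 72 h in 8 and higher in 1 of 12. Their median log2 difference was -0.21 and none was called, against 13.5% of all genes. In 48 h kd 1 was higher and in 240 h kd 3 were lower. Of 8 other synthetases 3 were lower and 1 higher at 72 h, with a median of -0.09, and none passed at 48 h or 240 h. The list names Mars1, which the tables hold as Mars, so it is not in these counts. The log2 difference of Mars was 0.03 at 48 h, 0.19 at 72 h (limma adjusted p = 0.00437) and 0.03 at 240 h.

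Other stress-induced targets gave 2 higher and 0 lower of 8 at 48 h, 4 and 3 at 72 h, and 3 and 3 at 240 h. Gdf15, a secreted stress hormone, rose from 3.09 ± 0.377 FPKM to 5.72 ± 0.287 at 48 h and was at 7.80 ± 0.324 at 72 h (SD, n = 3). Sqstm1, an autophagy receptor, was higher at 72 h (log2 difference 1.13, SE 0.05), where its span overlaps Mrnip, and Gadd45a was higher at 240 h (0.78, SE 0.05). Stc2, a secreted glycoprotein, was lower at 72 h (-0.67) and 240 h (-0.59). Chaperones and other genes of the unfolded protein response gave 0 higher and 1 lower of 16 at 48 h, 4 and 4 at 72 h, and 1 and 5 at 240 h. The 1 call was Hyou1 at 72 h (0.64, SE 0.03), where 13.5% of all genes were called.

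Sestrins and regulators of mTORC1 other than Sesn2 gave 2 higher of 12 at 48 h, 9 higher at 72 h, and 5 higher and 1 lower at 240 h. The median at 72 h was 0.29. Castor1, an arginine sensor that restrains mTORC1, was higher at 48 h (0.581, SE 0.08), 72 h (0.95, SE 0.06) and 240 h (0.97, SE 0.03). Rragd, a GTPase that recruits mTORC1 to lysosomes, rose from 0.764 ± 0.0616 to 2.55 ± 0.132 FPKM at 240 h (SD, n = 3). Members of the list act both for and against mTORC1.

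Targets of Nrf2 and p53 were counted because Sesn2 is also a known target of both. Nrf2 targets gave 3 higher of 9 at 48 h, 5 higher and 2 lower at 72 h, and 1 higher and 3 lower at 240 h. Hmox1, which degrades heme, rose from 15.6 ± 0.594 to 30.9 ± 3.39 FPKM at 48 h (SD, n = 3) and was also higher at 240 h (0.59), and Srxn1 was higher at 48 h (0.63) and 72 h (1.17), whereas Nqo1 was lower at 240 h (-0.78). The p53 targets gave 5 higher and 1 lower of 10 at 48 h, 9 higher at 72 h and 6 higher at 240 h, with medians of 0.21, 0.60 and 0.30 against 0.01, 0.01 and 0.00 for all genes. Cdkn1a, a cell cycle inhibitor, was at 15.7 ± 0.310 FPKM in 72 h kd against 5.39 ± 0.251 in 48 h ctrl, and Mdm2, which degrades p53, at 13.03 ± 0.498 against 6.37 ± 0.164 (SD, n = 3). The lists were described by counts and were not tested against other genes.

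**Figure D4:**
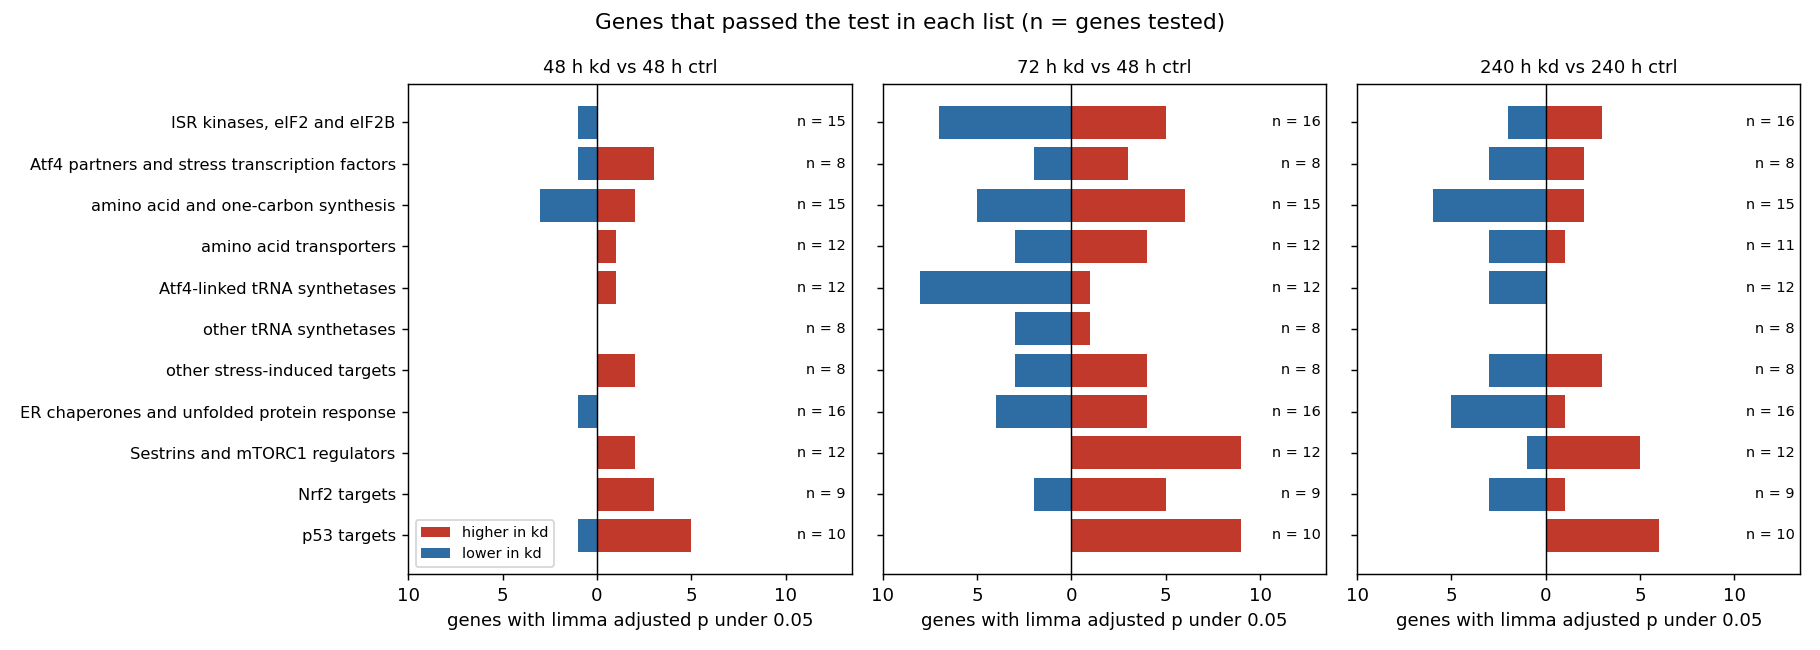
Number of genes (x axis) with a limma adjusted p under 0.05 in each of 11 lists (y axis) in the 3 knockdown comparisons, to the right where higher in kd and to the left where lower. The number tested stands at the right. At 72 h, where 28.9% of all genes pass higher and 26.0% lower, the lists run from 1 of 12 tRNA synthetases linked to Atf4 to 9 of 10 p53 targets higher, and the kinases, eIF2 and eIF2B have 5 of 16 higher.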

How the data were processed

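RNA was measured in 15 libraries of mouse 81K1 embryonic stem cells. Per the study's methods, the authors aligned single-end reads to mm10 (GRCm38) and used R packages for gene counts. The submitters' processing notes name STAR 2.7.0c, R 4.0.3 and DESeq2 1.30.0. The authors deposited FPKM values, 1 per gene and library, for 55228 genes, of which 53297 (96.5%) matched GENCODE release M21 for GRCm38 by position and symbol. The annotation used for counting is not given in the sources used here, which name a GENCODE release only for assigning peaks to genes. Multiplying each FPKM value by the gene span and by a library total gave whole reads for 100% of values (tolerance 0.001), so reads were counted over whole spans including introns, and between 7.38% and 8.34% more reads were counted than the library held, irrespective of strand. Values of overlapping or antisense genes are therefore uncertain.

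Tests used limma 3.58.1 in R 4.3.3 (lmFit, eBayes with trend, two-sided) on log2(FPKM + 0.1) of genes averaging 0.5 FPKM or more in the compared libraries, with Benjamini-Hochberg adjustment over all genes tested. Every adjusted p-value is from limma. Fold changes on this scale understate those of low genes. Each comparison used its own 6 libraries and the interaction 12. An exact permutation test of 3 against 3 cannot pass 0.05 and was not used. The members and lists were chosen with earlier results of these data known. Named genes are the 10 members, Smarcb1, up to 2 called genes with the largest rise and fall per list and knockdown comparison, and the 8 protein-coding genes (averaging 1 FPKM or more) whose profiles were most alike. Outside this rule, the markers Thy1 and Neurog2, the list genes Mars and Xpot, and genes overlapping a named gene were also named. Differences between library values and counts of genes whose groups did not overlap were described without a test.

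Alternatives were pseudocounts of 1 and 0.01, an FPKM minimum of 2 or none, TPM, median centring, limma voom on recovered reads (genes averaging 10 reads or more), 1 fit of all 15 libraries, a replicate block, 240 h ctrl as the control of 72 h kd, and each library left out. The call by adjusted p alone and levels per exonic kilobase were added after seeing the data. Fits were tested on simulated data. Sequences are from RefSeq GRCm38.p6. Plots were drawn with Python 3.11.15, numpy 2.4.6, pandas 2.3.3 and matplotlib 3.10.9. Read numbers carry no molecular identifiers and set counting error only.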

Additional observations from a re-analysis of the deposited data

Results flagged for a closer look

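The effect of Smarcb1 kd at 240 h differed from that at 48 h in 4 of the 9 tested genes (15.6% of all genes), by an interaction term over 12 libraries (limma). The difference between the effects was -0.60 on the log2 scale for Trib3, with 0.39 at 48 h and -0.21 at 240 h. For Atf4 it was -0.36, from 0.05 to -0.31. It was -0.37 for Atf5, with 0.36 at 48 h and -0.01 at 240 h. Sesn2 gave 0.32, with 0.25 at 48 h and 0.56 at 240 h. From 48 h ctrl to 240 h ctrl the log2 difference was -0.34 for Atf5, -0.28 for Trib3, -0.19 for Atf4 and -0.01 for Sesn2. Of these only Atf5 passed (limma adjusted p = 0.0441), and not once any 1 library was left out. For Atf5, Trib3 and Atf4 every 240 h ctrl library lay below every 48 h ctrl library. Each of them passed by limma voom (adjusted p = 0.00257, 0.0113 and 0.00799). Batch and time cannot be told apart. The interaction of Atf5 had an adjusted p of 0.0507 without 48 h ctrl replicate 1 and 0.0547 without replicate 2, and after rescaling to TPM it was 0.0938, with 0.0942 for Atf4.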

How the results depend on the processing

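Of 1015 alternative values for single genes, 880 kept their direction and their side of the adjusted p threshold, 70 lost the test, 36 gained it and 29 changed sign. The cause of each change was not tested. The fewest reads per library were those of Slc7a11, with 21 to 52, Chac1, with 182 to 467, and Ddit3, with 231 to 318.

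The share of all genes under the same setting stands in parentheses. At 48 h the number of genes past the adjusted p, 4 in the report, was 1 after rescaling to TPM (9.11%), 7 by limma voom (25.7%), 7 in 1 fit of all 15 libraries (28.2%), and 1 to 5 without single libraries (5.96% to 14.9%). At 72 h the number called, 0 in the report, was 1 when centred on the median (13.5%), 1 with 240 h ctrl as control (16.6%), and 0 to 1 without single libraries (at least 13.3%). At 240 h the number past the adjusted p, 3 in the report, was 6 by limma voom (45.5%), and the number called was 1 to 2 without single libraries (8.26% to 9.25%). For 240 h ctrl against 48 h ctrl the number called, 0 in the report, was 1 with a minimum of 2 FPKM (0.516%), by limma voom (1.36%) and in 1 fit of all libraries (0.907%). The number past the adjusted p there, 2 in the report, was 0 with no minimum (0.373%), 4 with a minimum of 2 FPKM (7.33%), 1 with TPM (5.40%), 1 when centred (2.71%), 7 by limma voom (12.1%), 7 in 1 fit of all libraries (14.3%) and 0 to 0 without single libraries (0.0176% to 0.0881%). For 72 h kd against 48 h kd the number past the adjusted p, 3 in the report, was 1 with no minimum (11.9%), 1 with TPM (23.8%) and 1 to 5 without single libraries (20.8% to 40.0%). The interaction's 1 call was 0 with a pseudocount of 1 (2.92%), 0 with TPM (6.02%) and 0 to 1 without single libraries (5.13% to 6.04%), and its number past the adjusted p, 4 in the report, was 2 with TPM (10.1%).

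The labels do not say whether the replicate numbers pair the samples. Deviations of same-numbered libraries correlated between -0.105 and 0.142 over genes. With the replicate block, the number past the adjusted p was 0 at 48 h (3.95%), 5 at 240 h (26.0%), 0 for 240 h ctrl against 48 h ctrl (where 0 of all genes passed) and 1 for 72 h kd against 48 h kd (25.5%). For 240 h kd against 72 h kd Atf5 had an adjusted p of 0.0501, and at 240 h Phgdh and Psat1 passed (0.0457 and 0.046).

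Over all genes the number called was 456 at 48 h (208 to 1485 over the alternatives), 1548 at 72 h (745 to 3642), 1016 at 240 h (453 to 2998), 54 between the controls (0 to 220, and 2 to 10 without single libraries), 857 for 72 h kd against 48 h kd (365 to 2101), 1803 for 240 h kd against 72 h kd (882 to 4201) and 664 for the interaction (324 to 1708). The numbers past the adjusted p alone were 1844 (451 to 4138), 6290 (3871 to 9983), 3848 (2290 to 7561), 391 (0 to 1970), 4081 (2559 to 6918), 6820 (4133 to 10768) and 1778 (1070 to 3307).

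The log2 differences that changed sign were as follows, with the range without single libraries. At 48 h, Chac1 ran from -0.194 to 0.062, above 0 only without 48 h kd replicate 2. At 72 h, Ddit3 was -0.004 when centred on the median and ran from -0.012 to 0.063. With 240 h ctrl as control, Atf4 was 0.137, Atf5 0.217, Chac1 0.472 and Asns 0.106. At 240 h, Ddit3 ran from -0.093 to 0.049, Atf5 from -0.044 to 0.055 and Chac1 from -0.359 to 0.013. Between the controls Sesn2 was 0.097 with TPM and ran from -0.040 to 0.009. For 72 h kd against 48 h kd, Phgdh was 0.057 with TPM and ran from -0.121 to 0.056, and Asns from -0.027 to 0.146. For 240 h kd against 72 h kd, Psat1 ran from -0.016 to 0.057. In the interaction, Chac1 ran from -0.293 to 0.078, Phgdh from -0.066 to 0.110 and Psat1 from -0.034 to 0.105. None of the reported values behind these had passed except those of Chac1 and Asns at 72 h.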
